A study of Mus musculus with 4 samples.

Results

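The genes described here carry the insulin signal from the receptor at the cell surface to the glucose transporter vesicle: Insr, Irs1, Irs2, Pik3r1, Pik3ca, Akt1, Akt2, Foxo1 and Tbc1d4. They were chosen by name, after the Ensembl identifiers of the count table had been paired with gene symbols, and all 9 were found among its 22298 genes and passed the filter on low counts. RNA sequencing was run on brown adipose tissue (BAT) of mouse fetuses at E18.5, at the end of gestation, from a strain that the labels give as C57BL/6 and the study's methods as C57BL/6J. The 2 control libraries came from fetuses of dams that drank tap water, and the 2 fructose libraries from fetuses of dams given 20% (w/v) fructose in the drinking water. No genotype other than the strain is given, and the labels call every fetus male. How many fetuses or litters went into a library is not given in the sources used here, so the p-values measure only the spread between these libraries, which may be technical.

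The labels and the reads disagreed on sex. Genes of the Y chromosome held 422 and 390 counts in control but 0 and 0 in fructose, so maternal fructose and the sex of the fetuses cannot be told apart here, and since this holds for both fructose libraries no comparison can be given without them. The libraries held 18542897 to 23645147 counts, and the share of counts from the mitochondrial genome was 5.89% and 6.49% in control and 10.8% and 11.2% in fructose. Markers of brown adipocytes summed to 14400 to 17600 CPM, counts scaled to a fixed library total, over the 4 libraries, and 5 of 7 liver markers (Apob, Ttr, Afp, Serpina1a and Fgb) had 0 counts in every library. Skeletal muscle markers summed to 376 and 484 CPM in control and 1030 and 817 CPM in fructose, and 16 of the 17 were called higher. All results below are from bulk tissue, in which fewer cells of a type and less RNA per cell cannot be told apart.

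Insulin binds the receptor tyrosine kinase encoded by Insr, which phosphorylates the docking proteins IRS1 and IRS2. These recruit phosphoinositide 3-kinase, made of a regulatory subunit (Pik3r1) and a catalytic subunit (Pik3ca), whose lipid product brings the kinases AKT1 and AKT2 to the membrane. AKT phosphorylates the transcription factor FOXO1, which then leaves the nucleus, and the RAB GTPase-activating protein TBC1D4, also called AS160, which then lets vesicles with the glucose transporter GLUT4 reach the surface. Brown fat is one of the tissues with strong insulin-driven glucose uptake, and the insulin receptor and its docking proteins are needed for brown adipocyte differentiation.

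FOXO1 binds forkhead motifs in promoters of insulin-regulated genes, and the promoters of both docking proteins carry related letters close to the start site. Promoter windows of 250 bases before the RefSeq start (GRCm38.p6) were held for 8 of the 9 genes, 13 windows in all. Insr had no window, so its promoter was not searched. Both strands were searched for GTAAACA, the forkhead consensus, for CAAAACA, the core of the insulin response sequence, and for the E-box CACGTG. These were found in 3.17%, 5.56% and 6.02% of all 32851 mouse promoter windows of this length. The windows of Irs1 and Irs2 are shown because both hold an E-box next to CAAAACA on the opposite strand, and the capitals mark these letters.
Irs1 (chr1:82291440-82291689, minus strand): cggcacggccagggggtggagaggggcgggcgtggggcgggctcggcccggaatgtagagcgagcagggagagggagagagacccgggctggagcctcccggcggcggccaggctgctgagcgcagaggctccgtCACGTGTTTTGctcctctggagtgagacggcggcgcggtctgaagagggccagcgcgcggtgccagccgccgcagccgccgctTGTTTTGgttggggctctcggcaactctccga
Irs2 (chr8:11008930-11009179, minus strand): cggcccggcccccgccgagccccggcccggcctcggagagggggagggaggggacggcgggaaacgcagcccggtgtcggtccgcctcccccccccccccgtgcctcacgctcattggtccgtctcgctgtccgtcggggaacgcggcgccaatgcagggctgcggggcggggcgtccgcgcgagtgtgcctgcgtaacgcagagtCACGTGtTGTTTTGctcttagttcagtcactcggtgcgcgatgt
In Irs1 the E-box lay 115 to 110 bases before the start and overlapped the letters TGTTTTG, which lay 111 to 105 bases before it and again 32 to 26 bases before it. In Irs2 the E-box lay at 44 to 39 and the letters TGTTTTG 37 to 31 bases before the start. An E-box and CAAAACA at most 5 bases apart were found in 7 windows of 32851 (0.0213%), those of Irs1, Irs2, Irs4, Klf11, Pcbp1, Pyroxd1 and 1700019P21Rik, a pair of motifs that was picked after the sequences had been seen. A match of letters is a description of the window and not a binding site. The only other match in the 13 windows was the forkhead consensus in Akt1, 161 to 155 bases before the start. Of the 6 genes with the pair that could be tested, only Klf11 was called (log2 fold change 0.69, adjusted p = 0.0014, edgeR). Among all tested genes 15.5% were called higher and 10.7% lower, so this count tells nothing about the pair.

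Per length of transcript, Akt2 had the highest level of the 9 genes in both groups. In TPM, counts per kilobase of transcript scaled to a fixed library total, Akt2 stood at 520 ± 23.7 in control and 433 ± 2.22 in fructose (mean ± SD, n = 2 libraries in each group, as throughout). Akt1 came next at 117 ± 7.12 and 104 ± 6.01 TPM. The remaining 7 genes were all below 30 TPM. In control, the libraries of Pik3r1 (13.5 ± 4.76) overlapped those of both its neighbours in the order, Foxo1 (16.0 ± 0.0358) above and Irs2 (13.3 ± 1.91) below, while both Irs2 libraries (12.0 and 14.7 TPM) lay below both of Foxo1. Pik3ca (1.37 ± 0.193) and Irs1 (1.11 ± 0.439), at the bottom of the order, overlapped as well. Tbc1d4 (8.83 ± 1.10) and Insr (5.40 ± 0.157) lay between these groups. In fructose the order was the same except that Pik3r1, at 25.1 ± 1.85 TPM, stood above Foxo1, at 16.9 ± 0.719 TPM. With union exon length, the combined length of all annotated exons of a gene, Irs2 (18.8 TPM) stood above Pik3r1 (13.4 TPM) in control. The rest of the control order did not change. The 9 genes together took 0.180% and 0.184% of all counts, those of the mitochondrial genome included, in control and 0.162% and 0.166% in fructose. Most of this share was Akt2, with 25913 of 34666 counts in the first control library and 26538 of 39302 in the second fructose library. The share is therefore no measure of the 9 genes as a group.

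**Figure D1:**
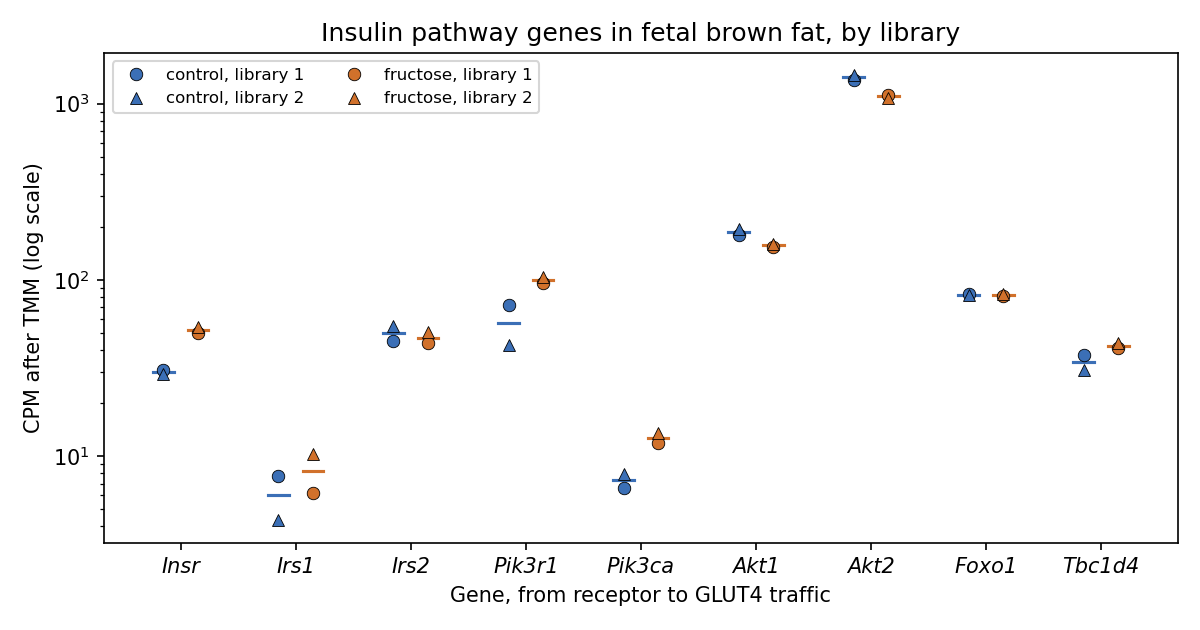
Level of each insulin pathway gene in CPM (log axis), with 1 point for each library and a bar at the mean of the 2 control or 2 fructose libraries. Insr, Pik3r1, Pik3ca and Tbc1d4 have both fructose points above both control points, Akt1 and Akt2 have them below, and the points of Irs1, Irs2 and Foxo1 overlap.

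The question of the design was what maternal fructose changes in fetal BAT. Of the 9 genes, 4 rose in fructose (Insr, Pik3r1, Pik3ca and Tbc1d4) and 2 fell (Akt1 and Akt2), by edgeR's quasi-likelihood test at a Benjamini-Hochberg adjusted p under 0.05 over 12888 genes. Among all tested genes 15.5% were called higher and 10.7% lower. The receptor and both subunits of phosphoinositide 3-kinase rose by 1.73 to 1.75 fold, Tbc1d4 by 1.24 fold, and the AKT kinases fell to 0.841 (Akt1) and 0.784 (Akt2) of control. At the thresholds in the study's methods, an unadjusted p under 0.05 and a fold change above 1.3, the counts were 3 higher and 0 lower in edgeR, with 17.6% and 6.18% of all genes, as the fall of Akt1 and Akt2 was smaller than that fold. With 1 library left out, 3 to 5 genes were called higher, and the count of lower calls was 1 without the second control or first fructose library and 0 without the second fructose library. The median log2 fold change of the 9 genes was 0.32, and that of all tested genes was 0.0025. That median was 0.092 without the second control library and 0.035 without the second fructose library. These changes are relative to library totals scaled by TMM, and length and base composition of the transcripts moved with them, as given after the single genes.

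Insr, the receptor itself, lies on chromosome 8 (3122061 to 3279617, minus strand, 21 exons, Ensembl ENSMUSG00000005534; positions throughout are GRCm38). It was at 30.8 and 29.3 CPM in control and 49.8 and 54.4 CPM in fructose. The groups did not overlap, and the libraries of a group lay close together. The log2 fold change was 0.79 ± 0.09 (SE, 95% interval 0.59 to 1, adjusted p = 0.00034 by edgeR's quasi-likelihood test), the lowest p among the 9 genes. The tested genes whose profile over the 4 libraries lay nearest to that of Insr were Zbtb1, Mlh3 and Tjp1, at Euclidean distances of 0.0331, 0.0367 and 0.0398 in centred log2 CPM.

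The docking proteins did not pass the test. Irs1 (ENSMUSG00000055980, chromosome 1, 82233101 to 82291416, minus strand, 2 exons) was at 7.76 and 4.33 CPM in control and 6.19 and 10.3 CPM in fructose. Its groups overlapped, and the libraries within a group differed more than those of any other of the 9 genes relative to their mean (log2 fold change 0.45 ± 0.28, 95% interval -0.17 to 1.06, adjusted p = 0.26, edgeR). Irs1 passed the test without the first control library (0.93, adjusted p = 0.0012, edgeR) and without the first fructose library (0.77, 0.022). The lowest count of any of the 9 genes in a library was 78, in the second control library for Irs1. Irs1 shares 2822 exonic bases with Gm9747 on the opposite strand, which had 159 to 211 counts in each library, and whether counting used the strand is not given in the sources used here. Irs2 (ENSMUSG00000038894, chromosome 8, 10984681 to 11008458, minus strand, 2 exons) was at 45.3 and 55.1 CPM in control and 43.7 and 50.4 CPM in fructose. Its groups overlapped as well, with a log2 fold change of -0.091 ± 0.11 (95% interval -0.33 to 0.15, adjusted p = 0.58, edgeR). Per length, Irs2 RNA was more abundant than Irs1 RNA in every library, with an Irs1 to Irs2 ratio of 0.118 and 0.0543 in control and 0.0979 and 0.141 in fructose. The difference in mean log2 ratio was 0.55 (exact permutation test over the 4 libraries, two-sided, p = 0.667), where 2 libraries against 2 cannot give a p below 0.333. Without the second control library the difference was -0.011, which was not tested.

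Both phosphoinositide 3-kinase genes rose. Pik3r1 (ENSMUSG00000041417, chromosome 13, 101680563 to 101768217, minus strand, 16 exons) encodes several regulatory isoforms from separate start sites, which the gene count does not separate. It was at 71.8 and 42.8 CPM in control and 96.4 and 104 CPM in fructose. The groups did not overlap, but the control libraries lay far apart, and the log2 fold change of 0.80 ± 0.17 (95% interval 0.43 to 1.18, adjusted p = 0.0060, edgeR) was 0.48 without the second control library and 1.23 without the first. Under DESeq2 its call was lost (0.79, adjusted p = 0.11). Pik3ca (ENSMUSG00000027665, chromosome 3, 32397671 to 32468486, plus strand, 20 exons), the catalytic subunit, was at 6.60 and 7.98 CPM in control and 11.9 and 13.5 CPM in fructose. Its groups did not overlap either, with a log2 fold change of 0.80 ± 0.16 (95% interval 0.45 to 1.16, adjusted p = 0.0049, edgeR). The ratio of Pik3r1 to Pik3ca in TPM was 13.6 and 6.71 in control against 10.2 and 9.64 in fructose. The difference in mean log2 ratio of 0.048 gave p = 1 in the exact permutation test, and was -0.46 without the second control library.

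The AKT genes, which encode the kinases that pass the signal on, were lower in fructose. Akt2 (ENSMUSG00000004056, chromosome 7, 27591552 to 27640826, plus strand, 14 exons) was at 1370 and 1450 CPM in control and 1120 and 1080 CPM in fructose. Every fructose library was below every control library, with a log2 fold change of -0.35 ± 0.09 (95% interval -0.54 to -0.16, adjusted p = 0.012, edgeR). The call was lost without the second fructose library (adjusted p = 0.11). Akt1 (ENSMUSG00000001729, chromosome 12, 112653821 to 112674884, minus strand, 14 exons) was at 179 and 194 CPM in control and 153 and 161 CPM in fructose. Its groups did not overlap, but its p lay just under the threshold (-0.25 ± 0.08, 95% interval -0.43 to -0.068, adjusted p = 0.044, edgeR), and it was lost without the second control library (0.13) or either fructose library (0.25 and 0.12). The ratio of Akt1 to Akt2 in TPM was 0.222 and 0.227 in control and 0.230 and 0.251 in fructose. The ratio was higher in both fructose libraries by 0.10 on the log2 scale, with p = 0.333 in the exact permutation test, the smallest it can give here. Over the 3 pairs of genes, the adjusted p was 1 for each.

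Of the AKT substrates, Foxo1 did not pass the test and Tbc1d4 rose slightly. Foxo1 (ENSMUSG00000044167, chromosome 3, 52268336 to 52353221, plus strand, 3 exons) was at 83.0 and 82.1 CPM in control and 81.0 and 83.6 CPM in fructose. The 4 libraries lay within a narrow range, with a log2 fold change of -0.0040 ± 0.08 and a 95% interval of -0.18 to 0.17 (adjusted p = 0.98, edgeR). Tbc1d4 (ENSMUSG00000033083, chromosome 14, 101442360 to 101609191, minus strand, 19 exons) was at 37.3 and 30.9 CPM in control and 41.0 and 43.9 CPM in fructose. Its groups did not overlap (0.32 ± 0.11, 95% interval 0.083 to 0.55, adjusted p = 0.047, edgeR), but the call was lost without the second control library (adjusted p = 0.24), without the second fructose library (0.21) and under DESeq2 (0.13). In all, 4 of the 9 genes had both fructose libraries above both control libraries and 2 had them below, an arrangement held by 33.4% and 31.6% of all tested genes.

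**Figure D2:**
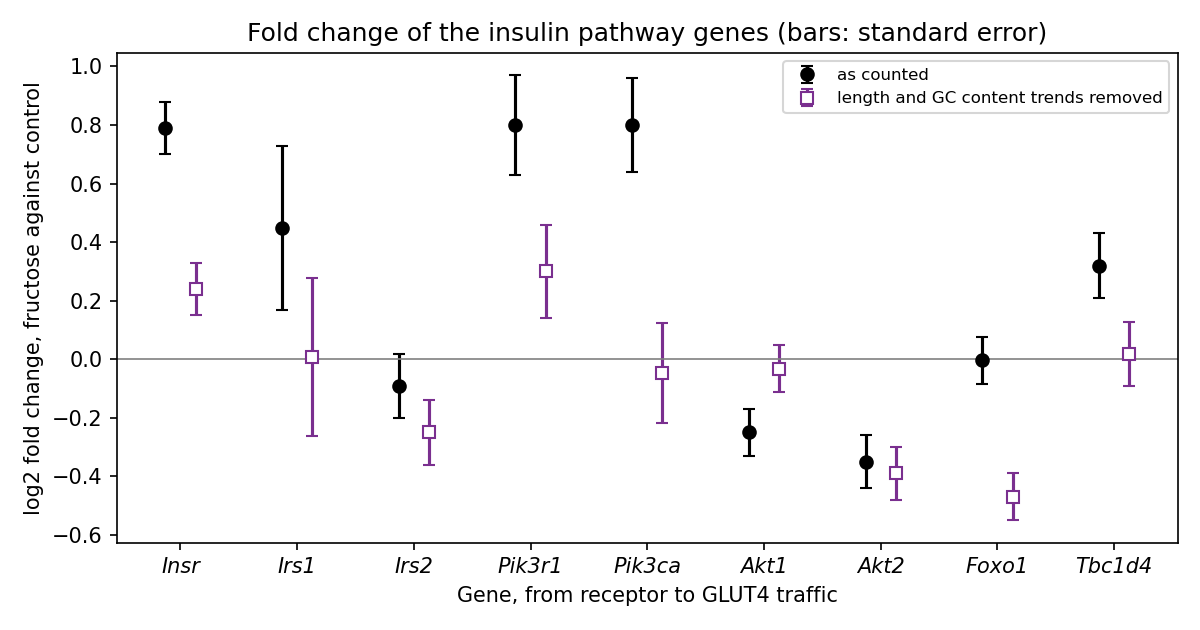
Log2 fold change of each gene in fructose against control from edgeR, as fitted (filled circles) and after removal of the trends in length and GC content (open squares), with bars of 1 standard error. As fitted, Insr, Pik3r1 and Pik3ca sit near 0.80 and Akt1 and Akt2 below 0, and with the trends removed Akt2 (-0.39) and Foxo1 (-0.47) are called.

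Across all tested genes, the difference between fructose and control moved with the length and the base composition of the transcript. Spearman's rho of the log2 fold change was 0.52 with transcript length and -0.53 with GC content, over genes, which are not independent replicates. Most of the insulin pathway genes have long transcripts. Of the 9, 8 were longer than the median tested transcript of 3161 bases, led by Insr at 9355, Irs1 at 9144 and Pik3ca at 8917 bases, and 6 were below the median GC content of 50.5%, with Pik3ca lowest at 41.2%. Akt1, at 2690 bases and 59.7% GC, was the exception in length and had the highest GC content.

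The trend of all genes, read at the length and GC content of each member, differed between fructose and control by 0.84 for Pik3ca, 0.55 for Insr, 0.51 for Pik3r1, 0.47 for Foxo1, 0.44 for Irs1, 0.30 for Tbc1d4 and -0.22 for Akt1 on the log2 scale. For Akt2 it was 0.035 and for Irs2 0.16. With both trends removed in each library, 0 of the 9 genes were called higher and 2 lower by edgeR, beside 3.29% and 3.76% of all genes, and at an unadjusted p under 0.05 the counts were 1 and 3. Pik3ca was then at -0.046 (adjusted p = 0.91), Pik3r1 at 0.30 (0.30) and Tbc1d4 at 0.018 (0.95). Insr was at 0.24 ± 0.09 (SE, adjusted p = 0.12), and Akt1 at -0.032 (0.87). The fall of Akt2 was as large as before, at -0.39 ± 0.09 (adjusted p = 0.022). Foxo1, which was not called as fitted, was at -0.47 ± 0.08 (adjusted p = 0.0054), and the median of the 9 genes was -0.032. The GC trend was fitted to what the length trend had left. Spearman's rho of the log2 fold change was then -0.12 with length and -0.0099 with GC content. Values of long transcripts such as Foxo1, at 8665 bases, are therefore not an exact comparison with genes of the same length and GC content. With the length trend alone removed (8.63% of all genes higher and 7.53% lower), Insr (0.31, adjusted p = 0.036) was called higher and Irs2 (-0.40, 0.029), Akt2 (-0.51, 0.0033) and Foxo1 (-0.45, 0.0039) lower, while with the GC trend alone removed (7.32% higher and 7.36% lower) Insr (0.65, 0.0019) and Pik3r1 (0.57, 0.040) were called higher and Akt2 (-0.22, 0.11) was outside the threshold. Which of these values is nearer to the amount of RNA in the tissue was not tested.

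**Figure D3:**
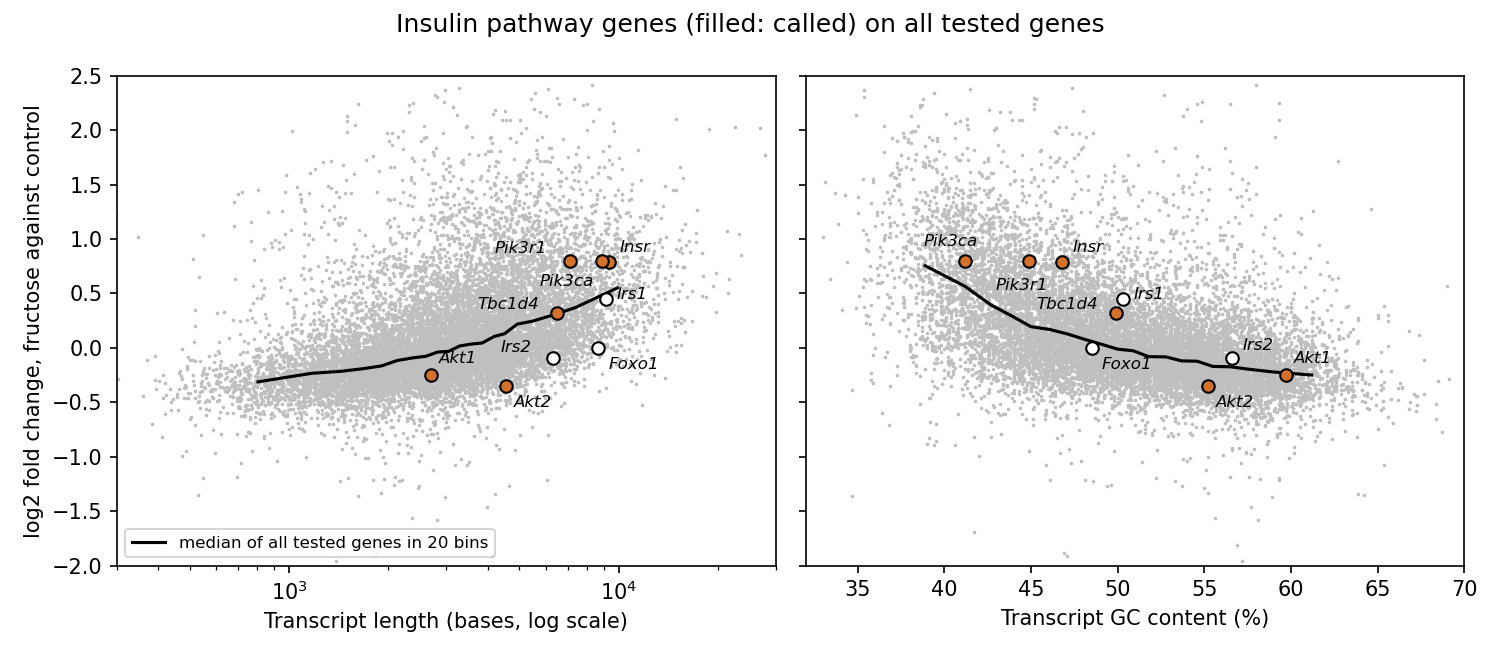
Log2 fold change in fructose against control of all 12888 tested genes (grey) against transcript length (left, log axis) and GC content (right), with the median in 20 bins of genes (line) and the 9 insulin pathway genes (circles, filled where called). Tbc1d4 lies on the line of length and Akt1 on the line of GC content, while Akt2 lies below both lines.

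Around the 9 genes, 131 other genes of the pathway were listed by role and 130 were tested. Of these, 37 rose and 14 fell, and 79 did not pass the test (edgeR), with a median log2 fold change of 0.05. These are 28.5% higher and 10.8% lower, beside 15.5% and 10.7% of all tested genes. The count that fell was 9 without the first fructose library and 5 without the second, and the count that rose was 28 to 36 with 1 library left out. With both trends removed, 4 were called higher and 4 lower, with 3.29% and 3.76% of all genes. Those called higher included Crk, Grb14 and Myo5a, and those called lower included Ppp2ca, Tsc2 and Lrp1. Grb14, Ppp2ca, Tsc2 and Lrp1 were outside the rule for named genes and were picked after their values had been seen.

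Among 27 tested adaptors and inhibitors at the receptor, 8 rose and 1 fell (median 0.11). Crk, an SH2 adaptor, was at 22.7 and 22.5 CPM in control and 38.6 and 39.3 CPM in fructose, without overlap (0.79 ± 0.10, adjusted p = 0.00039, edgeR). It was also called with both trends removed (0.45, adjusted p = 0.019). Sos1, which links the receptor to RAS, was called higher at 0.79 but was at -0.040 with the trends removed. Sh2b2, which encodes the adaptor APS, was the gene that fell, from 342 and 317 to 257 and 243 CPM (-0.40, adjusted p = 0.0059, and -0.18 with adjusted p = 0.21 after trend removal), and was outside the threshold without the second fructose library (adjusted p = 0.053). The inhibitory adaptor Grb14 was at 27.2 and 31.2 CPM in control and 35.9 and 34.9 CPM in fructose (0.28, adjusted p = 0.065), and was called only with the trends removed (0.43, adjusted p = 0.027).

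Of 17 genes for other phosphoinositide 3-kinase subunits, lipid phosphatases and the lipid-dependent kinase gene Pdpk1, 5 rose and 0 fell (median 0.34), and with the trends removed edgeR called 0 in either direction (0 at an unadjusted p under 0.05). DESeq2, run as fitted, called 3 higher and 0 lower, and at an unadjusted p under 0.05 edgeR had 7 higher and 0 lower. Pdpk1, the kinase that activates AKT, was at 24.3 and 22.8 CPM in control and 30.2 and 32.9 CPM in fructose. It was called higher at 0.42 ± 0.10 (adjusted p = 0.013), and was at -0.060 with the trends removed. Pik3r3, a second regulatory subunit, rose by 0.85 (adjusted p = 0.017), and Pik3c2a by 1.18 (0.0063). Inpp4b, a lipid phosphatase, rose by 1.76 (adjusted p = 0.033) on counts of 8 and 4 in control against 32 and 20 in fructose. The calls of Pik3r3 (adjusted p = 0.11) and Inpp4b (0.25) were lost without the first fructose library, that of Inpp4b also without the second control library (0.083), and that of Pdpk1 without the second fructose library (0.12).

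Of 34 genes for the AKT phosphatases, the mTOR complexes and further AKT substrates, 7 rose and 5 fell (median -0.024). The genes that rose included Rictor, a subunit of the mTOR complex that phosphorylates AKT, at 2.74 and 1.39 CPM in control and 5.57 and 6.78 CPM in fructose (1.57, adjusted p = 0.0033). Deptor, an inhibitor of both mTOR complexes, went from 13.1 and 13.5 to 26.5 and 26.0 CPM (0.98, adjusted p = 0.00034). Pde3b, the phosphodiesterase through which insulin restrains lipolysis, went from 53.1 and 47.0 to 81.0 and 104 CPM (0.89, adjusted p = 0.00058). Bad, a pro-apoptotic AKT substrate, fell from 52.8 and 52.7 to 37.2 and 36.1 CPM (-0.53, adjusted p = 0.0018). Gsk3a, a glycogen synthase kinase, was at -0.38 (adjusted p = 0.0069), and Eif4ebp1, a translation repressor under mTOR, at -0.35 (0.011, and 0.094 without the second fructose library). Every gene named here was outside the threshold with the trends removed, at 0.80 (adjusted p = 0.095) for Rictor, 0.36 (0.096) for Deptor, 0.35 (0.056) for Pde3b, -0.19 (0.20) for Bad, -0.11 (0.48) for Gsk3a and -0.26 (0.083) for Eif4ebp1.

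Among 32 genes for GLUT4 vesicle traffic, 11 rose and 3 fell (median 0.038). Slc2a4, which encodes GLUT4, was called in neither direction. It was at 432 and 508 CPM in control and 512 and 417 CPM in fructose, with overlapping groups (-0.017 ± 0.11, adjusted p = 0.93). Myo5a, a motor of vesicle transport, was at 1.90 and 1.72 CPM in control, on 36 and 31 counts, and 4.95 and 5.63 CPM in fructose (1.55 ± 0.25, adjusted p = 0.0015, edgeR). With the trends removed it was at 0.86 ± 0.23 and only just called, with an adjusted p that rounds to 0.05 (edgeR). Ralgapa1, a RAL GTPase-activating subunit, was called higher at 0.97 and Pikfyve, a lipid kinase of endosomes, at 0.96, and both were outside the threshold with the trends removed (0.21 and 0.18). Trip10, the CIP4 effector of the GTPase TC10, fell from 54.8 and 54.1 to 39.5 and 41.9 CPM (-0.42, adjusted p = 0.0056), and Rgl2 and Exoc7 by smaller amounts (-0.26 for each). The calls of Rgl2 and Exoc7 were lost without either fructose library (adjusted p = 0.12 to 0.25), that of Rgl2 also without the first control library (0.079) and that of Exoc7 without the second (0.078). With both trends removed, 1 gene of the group was called higher and 1 lower, and Trip10 (-0.20, adjusted p = 0.19), Rgl2 (-0.093, 0.55) and Exoc7 (-0.16, 0.26) were outside the threshold.

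The RAS and MAPK arm, the other branch from the receptor, had 6 of 20 genes called higher and 5 lower (median -0.0083). The kinase gene Rps6ka3 was at 16.5 and 12.4 CPM in control and 33.8 and 33.3 CPM in fructose (1.21 ± 0.13, adjusted p = 0.00024, and 0.43 with adjusted p = 0.051 after trend removal). Braf, a RAF kinase, was at 1.19 and Rasa1, a RAS GTPase-activating protein, at 0.87. Those that fell included Mapk3, which encodes ERK1, from 196 and 193 to 143 and 150 CPM (-0.41, adjusted p = 0.0041), Hras (-0.31) and the feedback inhibitor Spry1 (-0.53). Hras was outside the threshold without the second control (adjusted p = 0.055) or second fructose library (0.24), and Spry1 without the first control (-0.26, 0.22) or first fructose library (-0.49, 0.051). With the trends removed, 0 genes of this arm were called higher and 1 lower by edgeR (1 and 5 at an unadjusted p under 0.05), and Braf (0.40, adjusted p = 0.27), Rasa1 (0.37, 0.22), Mapk3 (-0.10, 0.50), Hras (-0.17, 0.27) and Spry1 (-0.36, 0.19) were outside the threshold.

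Since FOXO1 acts as a transcription factor, genes known as its targets were read as well. Of 24 tested, 5 rose and 5 fell (median 0.13), and 1 rose and 2 fell with the trends removed. Ppargc1a, a coactivator of mitochondrial genes, went from 6.91 and 7.49 to 14.2 and 17.9 CPM (1.16, adjusted p = 0.00081, and 0.48 with adjusted p = 0.084 after trend removal). Pdk4, which restrains pyruvate oxidation, was higher under both fits, from 275 and 237 to 354 and 386 CPM (0.53, adjusted p = 0.0025, and 0.33, adjusted p = 0.043). Bnip3, a mitophagy receptor, was at 369 and 366 CPM in control and 226 and 316 CPM in fructose and was lower under both (-0.44, adjusted p = 0.025, and -0.65, adjusted p = 0.012). As fitted, its value without the first fructose library was -0.21 (adjusted p = 0.26). Sod2, the mitochondrial superoxide dismutase, which was picked after its value had been seen, was called lower with the trends removed (-0.84, adjusted p = 0.0015), beside -0.25 (adjusted p = 0.063) as fitted. The ubiquitin ligase gene Fbxo32, known from muscle atrophy, was at 0.86 (adjusted p = 0.040), the cell cycle inhibitor Cdkn1a at -0.42 (0.0059) and the lipase gene Pnpla2 at -0.34 (0.017). The call of Fbxo32 was lost without the second control or either fructose library (adjusted p = 0.11 to 0.17), and that of Pnpla2 without either fructose library (0.11 and 0.099). Fbxo32 (0.40, adjusted p = 0.41), Cdkn1a (-0.20, 0.20) and Pnpla2 (-0.15, 0.37) were outside the threshold with the trends removed.

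**Figure D4:**
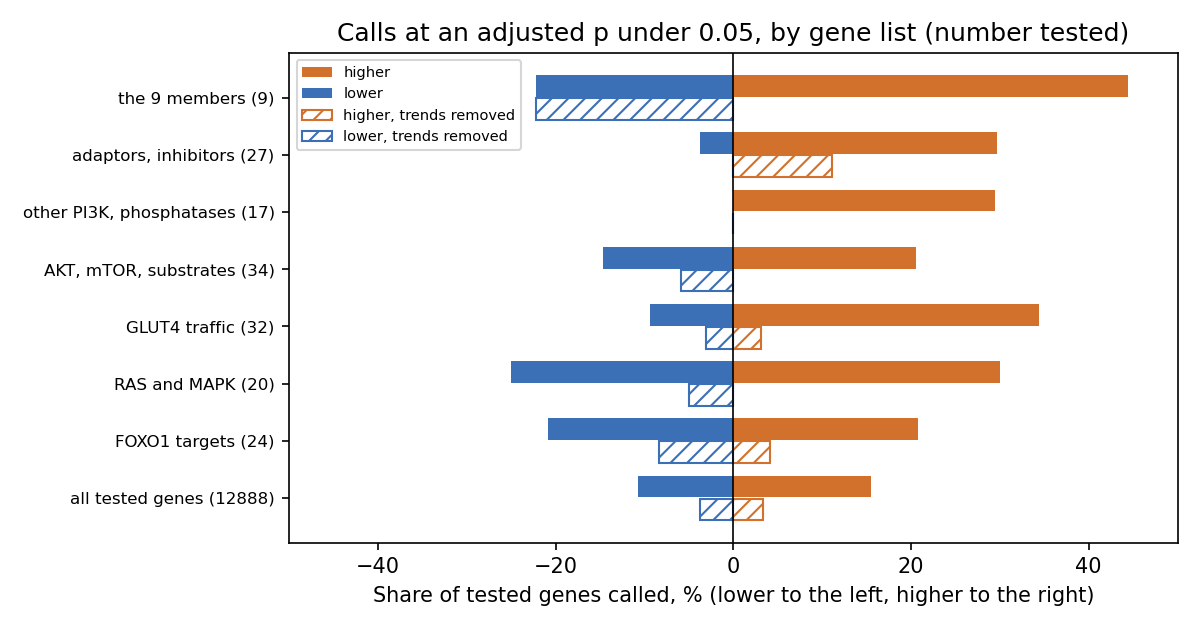
Share of tested genes called higher (to the right) or lower (to the left) in fructose, in percent, for the 9 insulin pathway genes, each role group of other pathway genes, the FOXO1 targets and all tested genes, as fitted (solid) and after removal of the trends in length and GC content (hatched), with the number tested in brackets. Solid bars of all tested genes reach 15.5% higher and 10.7% lower, and in every list the solid bars to the right are as long as or longer than the hatched ones.

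The genes of the pathway are also used by skeletal muscle, and muscle markers moved with the groups. The 17 markers had a median log2 fold change of 1.41, and of 1.39 with both trends removed, where 14 were called. Pan-adipocyte markers summed to 18600 and 17800 CPM in control and 17300 and 16500 CPM in fructose, with 2 of 12 called higher and 4 lower by edgeR, and of 12 brown adipocyte markers 3 were called higher and 3 lower. With the trends removed, edgeR called 2 and 3 of these lists higher and 0 and 0 lower (2 and 1 lower at an unadjusted p under 0.05). Endothelial markers summed to 1870 and 1840 CPM in control against 1640 and 1710 CPM in fructose. Of these 10 markers edgeR called 0 higher and 3 lower, and 0 and 1 with both trends removed. Erythroid markers were lower as fitted, at 19200 and 15300 CPM in control and 11800 and 12100 CPM in fructose, with 5 of 8 called. With both trends removed edgeR called 0 of them, and their median log2 fold change was -0.17, beside -0.53 as fitted. Fibroblast markers had 1 of 11 called higher and 1 lower, and macrophage markers 1 of 10 higher and 2 lower. Of 6 smooth muscle and 6 Schwann cell markers edgeR called 0, with 1 higher and 2 lower among the former and 0 among the latter at an unadjusted p under 0.05, and DESeq2 called 0 as well. The part of muscle, adipocyte, endothelial or blood cells in the results for the insulin pathway was not tested.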

How the data were processed

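RNA was measured by sequencing in 4 libraries of fetal mouse BAT, 2 control and 2 fructose, grouped by the treatment in the labels. The library names in the labels matched the count columns to the samples. The authors trimmed reads with fastp and aligned them to mm10 with Bowtie2 2.0.0.5 and TopHat2 2.0.0, and StringTie 2.2.0 assembled transcripts, according to the submitters' processing notes. The study's methods say that the assemblies were merged by Cuffmerge and gene counts taken from the merged file. The deposited values are whole counts per Ensembl gene, not normalised. The program that did the counting and its strand setting are not given in the sources used here. The tables of single libraries were identical to the table of all 4. Of 22298 genes, 43 had no entry in the annotation used for symbols, lengths and GC content.

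Library totals were 18542897 to 23645147 counts, for which the floor of 3 counts was 0.127 to 0.162 CPM in a library, a figure that covers counting error only. Replicates differed by more than counting error (chi-square per degree of freedom 13.1 in control and 8.49 in fructose). Counts were scaled by TMM, filtered by filterByExpr and tested with edgeR 4.0.16 (quasi-likelihood test, two-sided, R 4.3.3), with Benjamini-Hochberg adjustment over the 12888 genes kept and a threshold of 0.05. The study's methods use DESeq2, here version 1.42.0 as an alternative. CPM and TPM were computed from the deposited counts, TPM with the longest coding transcript, and the log2 fold change is fructose minus control. Ratios within a library were compared by the exact permutation test. For the trends, each library's log2 CPM was taken as its deviation from the gene's mean over the libraries. A lowess curve (span 0.3) of this deviation against length or GC content was fitted over all tested genes and used as an offset. For both trends, the curve of length was fitted first and that of GC content to what was left. Scripts were tested on simulated data.

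The genes and lists were chosen with earlier results of these data known. Named besides the 9 genes were, for each list of pathway genes and FOXO1 targets, up to 3 called genes with the highest and up to 3 with the lowest log2 fold change whose groups did not overlap, with Slc2a4 and Pdpk1, and the 3 genes nearest in profile to Insr. Some genes that this rule names are not reported here. Alternatives were other scalings and filters, the thresholds of the study's methods, trend removal, the replicate number as a block, union exon length for TPM and leaving out each library. The same-numbered libraries share only a number, since nothing in the labels pairs them.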

Additional observations from a re-analysis of the deposited data

How the results depend on the processing

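Of the 9 genes, 4 were called higher, against 1 with the length trend removed, 2 with the GC trend removed, 0 with both removed, 2 under DESeq2 and 3 to 5 with 1 library left out. The 2 called lower became 1 with library sizes alone, 0 with the GC trend removed, 0 at the thresholds of the study's methods and 0 to 2 with 1 library left out (0 without the second fructose library). Their median of 0.32 was -0.024 with the length trend removed and -0.032 with both, and 0.035 to 0.46 with 1 library left out. Of the other pathway genes, 37 higher became 18, 16 and 4 with the length, the GC or both trends removed, and 28 to 36 with 1 library left out. The 14 lower became 8 with library sizes alone, 5 and 4 with the GC or both trends removed, 7 at the study's thresholds and 5 to 15 with 1 library left out. Over all genes, 2001 higher became 1280 under DESeq2, 1112, 944 and 424 with the length, GC or both trends removed, and 1266 to 2254 with 1 library left out. The 1379 lower became 859 with library sizes alone, 484 with both trends removed, 797 at the study's thresholds and 527 to 1685 with 1 library left out, lowest without the second fructose library. Calls were 59.2% higher, against 72.3% with library sizes alone and 46.7% with both trends removed.

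The block for replicate number gave 2117 higher and 1441 lower calls, and the deviations of same-numbered libraries had a correlation of -0.027. With the block beside trend removal (length, GC, both), higher calls were 2, 2 and 0 of the 9 genes, 18, 16 and 4 of the other pathway genes and 1160, 1080 and 463 of all genes. Lower calls with the block were 0 of the 9 genes with the GC trend removed, 4 of the other pathway genes with the GC trend and 4 with both removed, and 873 and 452 of all genes with length or both removed, and the median of the 9 genes was -0.024 with length and -0.032 with both removed.

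Signs reversed where the fitted value was small or close to a trend. With the length trend removed, Irs1 was at -0.024 (-0.024 with the block), Tbc1d4 at -0.0025 and Slc2a4 at 0.033 (0.031). With the GC trend removed, Irs2 was at 0.067 (0.068) and Slc2a4 at 0.12 (0.12). With both removed, Pik3ca was at -0.046 (-0.042), Sos1 at -0.040 (-0.037), Pdpk1 at -0.060 (-0.060) and Slc2a4 at 0.16 (0.16). With library sizes alone Foxo1 was at 0.057 and Slc2a4 at 0.043, and with other filters on low counts Foxo1 was at 0.0013 and 0.0061. With 1 library left out, values ranged from -0.23 to 0.056 for Irs2, reversed without the second control (0.056) or first fructose library (0.0090), from -0.024 to 0.021 for Foxo1, reversed without the first control (0.0043) or first fructose library (0.021), and from -0.17 to 0.13 for Slc2a4, reversed without the second control (0.10) or second fructose library (0.13). The log2 ratio differences ranged from -0.011 to 1.11 for Irs1 to Irs2, -0.46 to 0.56 for Pik3r1 to Pik3ca, both lowest and reversed without the second control library, and 0.037 to 0.17 for Akt1 to Akt2. Irs1 was called without the first control (0.93, adjusted p = 0.0012, edgeR) or first fructose library (0.77, 0.022). Leaving out a library left an arm with 1, assumed to vary like the others. Of 17 alternatives, Insr was called in 15, Akt2 in 14, Pik3r1 in 13, Pik3ca in 11, Tbc1d4 in 7, Akt1 in 6, Foxo1 in 4, Irs1 in 2 and Irs2 in 2. DESeq2 gave no adjusted p for Inpp4b. Except where a fit held fewer libraries, the cause of each change was not tested. The lowest count of the 9 genes in a library was 78 (Irs1), with a counting error of 11.3%, so depth limits Irs1 most.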

Other observations

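The following relatives of the 9 genes, picked for their family and with their values seen, did not pass edgeR's quasi-likelihood test at a Benjamini-Hochberg adjusted p of 0.05. Of the docking proteins, Irs3 was at 29.3 and 24.8 CPM in control and 21.4 and 21.7 CPM in fructose (log2 fold change -0.33 ± 0.12 SE, adjusted p = 0.055), with both fructose libraries below both control libraries. Per length, Irs3 was at 19.4 ± 2.17 TPM in control and 16.4 ± 0.492 TPM in fructose (mean ± SD), beside 13.3 ± 1.91 and 13.3 ± 1.6 TPM for Irs2. Irs4 was at -0.022 ± 0.23 (0.96). Pik3cb, another catalytic subunit, was at 0.37 (adjusted p = 0.092), and Pik3r2, another regulatory subunit, at -0.24 (0.16). The FOXO genes Foxo3 (0.044, adjusted p = 0.82), Foxo4 (0.064, 0.63) and Foxo6 (-0.29, 0.62) were outside the threshold, as was Tbc1d1, the relative of Tbc1d4 known from muscle (0.26, 0.13). The phosphatase gene Ptpn1, which acts on the receptor, was at -0.031 (0.86).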
